A study of Mus musculus with 2 samples.

Results

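Kupffer-like macrophages were followed in droplet single-cell RNA sequencing of leukocytes sorted from mouse liver tumours. Each cell was classed by its unique molecular identifiers (UMIs), each of which stands for 1 captured RNA molecule. Cells were kept with 500 or more UMIs, 250 or more genes and a mitochondrial share of UMIs up to 10%. A Kupffer-like cell also had at least 3 UMIs of the complement genes C1qa, C1qb and C1qc together and a UMI of at least 2 of the 5 genes Clec4f, Vsig4, Timd4, Cd5l and Marco. It had 0 UMIs of the T cell genes Cd3d, Cd3e and Cd3g, and the hepatocyte genes Alb, Apoa1, Apoa2 and Ttr made up less than 5% of its UMIs. The rule took 97 of 21998 kept cells, from 23456 barcodes in all. Of these, 73 were among 10846 kept cells of the STK library and 24 among 11152 of the DMSO library. The class was chosen by the counts of these genes, so their levels are a description of it and support nothing.

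The STK library came from hepatocellular carcinomas of MYC-ON mice gavaged with an agent labelled STK, and the DMSO library from those of MYC-ON mice gavaged with DMSO. The labels give neither the nature, dose or duration of STK, nor the driver of MYC, nor the number, age and sex of the animals behind each library. Tumours were dissociated and live cells stained for CD45, the surface antigen of leukocytes, were sorted, so every share below is a share of sorted cells. Each group was 1 library with the same batch label, so no difference has a replicate check and no test was run. Intervals in parentheses are exact 95% intervals and cover counting error only.

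Kupffer cells are the resident macrophages of the liver. They sit in the sinusoids, where they clear bacteria, worn erythrocytes and lipoproteins from the blood, and most descend from embryonic precursors rather than from circulating monocytes. In the mouse, Clec4f, a C-type lectin, marks them almost exclusively. Vsig4 is a complement receptor that binds C3 fragments, Timd4 binds phosphatidylserine on dying cells, Cd5l is a secreted inhibitor of macrophage apoptosis, and Marco is a class A scavenger receptor. Folr2, a folate receptor of resident macrophages, was the 1 marker that the rule did not use. In mouse work the Kupffer cell programme is known to depend on PU.1, LXR alpha, ID3 and signals of the sinusoid.

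All 5 marker genes of the rule and Folr2 are protein-coding. In GENCODE vM21 on GRCm38, Clec4f (ENSMUSG00000014542) lies on chromosome 6 from 83644542 to 83656187, minus strand, and Vsig4 (ENSMUSG00000044206) on chromosome X from 96247203 to 96293438, minus strand. Timd4 (ENSMUSG00000055546) lies on chromosome 11 from 46810800 to 46844332, plus strand. Cd5l (ENSMUSG00000015854) lies on chromosome 3 from 87357881 to 87371073, plus strand. Marco (ENSMUSG00000026390) lies on chromosome 1 from 120474538 to 120505024, minus strand, and Folr2 (ENSMUSG00000032725) on chromosome 7 from 101839988 to 101857194, minus strand.

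The promoters of 4 of these genes are shown, 3 of the 5 genes of the rule and Folr2. Folr2, outside the rule, was detected in most cells with 3 to 5 markers. Timd4 and Marco, also of the rule, are not shown, and of the 2 Folr2 entries the first is. Each sequence runs from 250 bases before to 50 bases after the annotated start, 5′ to 3′ on the gene's strand, from RefSeq on GRCm38.p6. Capitals mark the MAF core TGCTGA, searched on both strands. Every sequence shown holds this core, whereas the Marco promoter, not shown, had 0. The motifs were searched separately, so matches of different motifs may overlap.
Clec4f, chr6:83656067-83656366: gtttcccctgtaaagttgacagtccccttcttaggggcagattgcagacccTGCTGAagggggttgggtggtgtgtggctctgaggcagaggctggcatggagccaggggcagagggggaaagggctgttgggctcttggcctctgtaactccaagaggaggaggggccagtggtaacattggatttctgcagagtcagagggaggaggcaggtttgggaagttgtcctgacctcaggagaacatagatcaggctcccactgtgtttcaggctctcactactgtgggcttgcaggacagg
Vsig4, chrX:96293389-96293688: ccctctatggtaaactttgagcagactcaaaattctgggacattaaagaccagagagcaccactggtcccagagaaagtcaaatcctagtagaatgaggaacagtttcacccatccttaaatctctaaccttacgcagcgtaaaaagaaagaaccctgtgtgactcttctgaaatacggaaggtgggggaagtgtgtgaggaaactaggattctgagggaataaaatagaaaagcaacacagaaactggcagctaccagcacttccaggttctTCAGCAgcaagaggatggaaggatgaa
Cd5l, chr3:87357631-87357930: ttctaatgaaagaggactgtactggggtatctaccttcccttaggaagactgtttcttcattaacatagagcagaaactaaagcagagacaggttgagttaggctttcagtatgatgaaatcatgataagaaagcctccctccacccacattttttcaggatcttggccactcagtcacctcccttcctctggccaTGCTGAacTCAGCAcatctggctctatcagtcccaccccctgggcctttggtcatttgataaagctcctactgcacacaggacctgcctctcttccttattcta
Folr2, chr7:101857141-101857440: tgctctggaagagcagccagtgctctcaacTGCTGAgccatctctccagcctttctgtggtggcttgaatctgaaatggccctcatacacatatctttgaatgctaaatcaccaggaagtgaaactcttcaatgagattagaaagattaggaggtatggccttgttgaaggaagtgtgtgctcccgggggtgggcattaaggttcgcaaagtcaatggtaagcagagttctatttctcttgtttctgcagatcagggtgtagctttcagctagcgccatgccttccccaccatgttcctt
The MAF core was found in RefSeq promoters of 5 of the 6 genes, all but Marco. It was found in 19.5% of all 32851 mouse promoters of this length. A gene was counted if any of its entries held the core, whereas this share is per promoter, so the 2 are not like for like. The core GAGGAA, bound by PU.1, was found in promoters of 3 of the 6 genes against 28.3% of all, and AGGTCA, a nuclear receptor element, in 2 of the 6 against 16.3% of all. The MAF core was picked for display after these motifs had been counted, and a match describes letters, not a bound site.

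The Kupffer-like cells held 571653 UMIs in the STK library and 162508 in the DMSO library. The median cell had 5500 UMIs in the STK library (723 to 33893) and 5958 in the DMSO library (587 to 28111). The libraries shared 203 barcodes, among them 2 of the 73 STK cells and 0 of the 24 DMSO cells, and no barcode was in the class in both. Cells could be sexed by Xist or by Y-linked genes. In the STK library 32 Kupffer-like cells were female, 7 male and 34 neither, and in the DMSO library 2 were female, 10 male and 12 neither. Sex and treatment cannot be told apart at the level of libraries, since 74.0% of sexed kept cells were female in the STK library and 18.8% in the DMSO library.

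A few cells stood apart and carried much of some sums. At least 10 UMIs of the markers of a cell type other than monocytes, leaving out the broadly expressed Trf and Bst2, were present in 9 of the 73 STK cells and 4 of the 24 DMSO cells. An STK cell of 33893 UMIs held 303 UMIs of Alb and all 165 UMIs of Lcn2. A pair of STK cells carried the serosal macrophage genes Prg4 (13 and 4 UMIs) and Alox15 (25 and 7 UMIs), with 228 and 155 UMIs of Saa3. A DMSO cell of 28111 UMIs held 166 UMIs of Igfbp7 and 21 of Stab2, genes of sinusoidal endothelium. Scrublet, a doublet caller, marked 6 of the 73 STK cells and 2 of the 24 DMSO cells when the 8% of cells with the highest scores in each library were marked. No doublets were removed from the values below. Genes named by the rule that lose their call without the 9 STK and 4 DMSO cells are also given without them.

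The class held cells with a full Kupffer marker set and cells that met the rule with few UMIs. In the STK library 13 cells had all 5 markers, 12 had 4, 15 had 3 and 33 had 2. In the DMSO library the numbers were 2, 5, 4 and 13. The commonest sets in STK cells were all 5 markers (13 cells), Cd5l with Marco (11 cells) and Clec4f with Vsig4 and Cd5l (10 cells). In DMSO cells they were Cd5l with Marco (8 cells) and Clec4f with Vsig4, Timd4 and Cd5l (5 cells). Among 2-marker cells, 4 STK and 1 DMSO cells had exactly 1 UMI of each marker.

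Just outside the rule, 268 STK and 391 DMSO C1q macrophages had 1 marker, which was Cd5l in 250 and 376 of them. In 119 STK and 165 DMSO cells that marker rested on a single UMI. Of all kept cells with at least 2 markers, 81 in the STK library and 29 in the DMSO library, 5 and 2 had fewer than 3 C1q UMIs and 3 and 3 had a Cd3 UMI. None was left out for hepatocyte RNA. Just inside it, 10 STK and 2 DMSO cells had fewer than 10 C1q UMIs, with the lowest at 4 and 8.

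Clec4f had a UMI in 40 of 73 STK cells and 9 of 24 DMSO cells. Among cells with 3 to 5 markers its median was 9.5 UMIs in the STK library (0 to 63) and 14.0 in the DMSO library (0 to 40). Among cells with 2 markers, 6 of 33 STK cells had a UMI of it, at most 10, and 0 of 13 DMSO cells. Cd5l was the broadest marker, present in 71 of 73 STK cells and all 24 DMSO cells. It was also the only marker common outside the class, in 24.7% of other C1q macrophages of the STK library and 34.2% of those of the DMSO library. Marco was the least tied to the others, present in 17 of 40 STK and 3 of 11 DMSO cells with 3 to 5 markers, and in 12 of 33 STK and 8 of 13 DMSO cells with 2.

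Folr2 followed the number of the other markers. It had a UMI in 34 of 40 STK cells and 9 of 11 DMSO cells with 3 to 5 markers. Among 2-marker cells it had one in 11 of 33 STK cells and 1 of 13 DMSO cells. T cells, which should lack it, had a UMI in 0.245% of the STK library and 0.142% of the DMSO library, at median depths of 3882 and 4020 UMIs. After every cell was thinned to 2000 UMIs, leaving out 12 STK and 3 DMSO cells, Folr2 was found in 39.3% of STK cells (27.1 to 52.7) and 33.3% of DMSO cells (14.6 to 57.0), against 61.6% and 41.7% before thinning. Folr2 was thus scarce in the 2-marker cells, which are therefore also described apart.

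The 2-marker cells differed from the rest in other genes as well. H2-Ab1, a chain of MHC class II, reached 3821 counts per 1000000 UMIs of the group (CPM) in 2-marker STK cells against 1415 CPM in STK cells with 3 to 5 markers. In DMSO cells it was 2240 CPM with 2 markers against 1101 CPM with 3 to 5, but 2 of the 13 cells with 2 markers held 102 and 62 of their 244 UMIs. The median DMSO cell went the other way, with 6.44 UMIs of H2-Ab1 per 10000 with 2 markers against 8.00 with 3 to 5. Ly6c2, a monocyte gene, had 108 of its 116 UMIs in the 2-marker cells of the STK library and 27 of 33 in those of the DMSO library. Id3 had 330.5 CPM in 2-marker STK cells against 1893 CPM with 3 to 5 markers, and 174 CPM against 1661 CPM in DMSO cells. Of the 110 UMIs of the 2-marker STK cells 1 cell held 77. All 19 UMIs of the 2-marker DMSO cells lay in the cell of 28111 UMIs with genes of sinusoidal endothelium. The 2-marker cells were the deeper ones in both libraries, with a median of 10691 UMIs against 4061 in STK cells and 6635 against 4920 in DMSO cells.

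**Figure D1:**
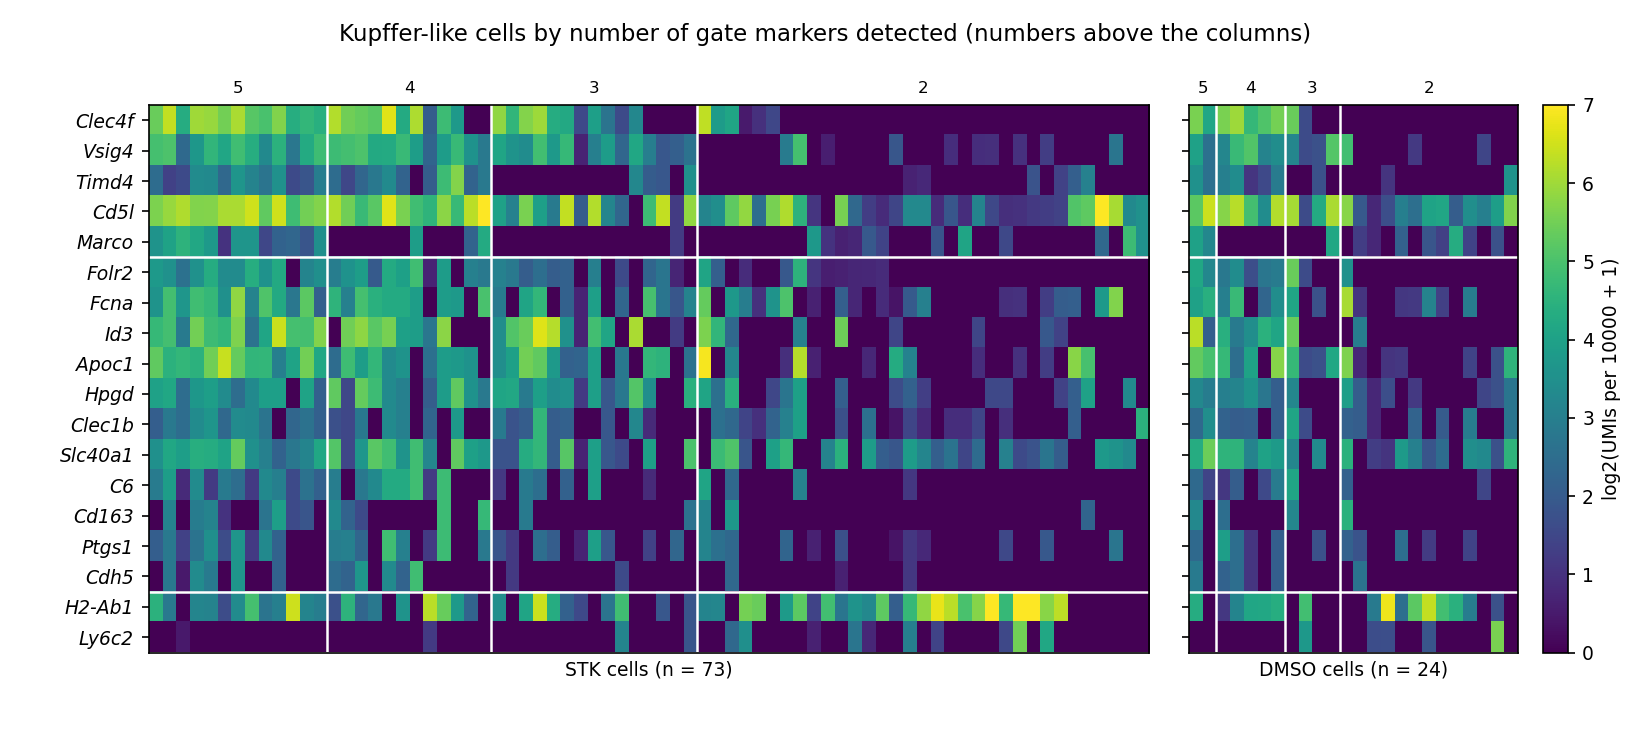
Each column is 1 Kupffer-like cell (73 STK, 24 DMSO), grouped by the number of gate markers it carries, and each row a gene, coloured by log2(UMIs per 10000 + 1). The first 5 rows are the gate genes. Most rows from Folr2 to Cdh5 are fuller in the columns with 3 to 5 markers than in those with 2. Cd163 and Cdh5 are sparse throughout, with Cdh5 in 12 of 25 STK cells with 4 or 5 markers and 2 of 15 with 3. Slc40a1 stays in 24 of 33 2-marker STK cells. The median of H2-Ab1 per 10000 UMIs is higher with 2 markers than with 3 to 5 in STK cells (24.7 against 6.05) but not in DMSO cells (6.44 against 8.00).

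Kupffer-like cells made up 0.673% of kept cells in the STK library (0.528 to 0.846) and 0.215% in the DMSO library (0.138 to 0.320), a ratio of 3.13 (1.95 to 5.19). C1q macrophages as a whole were 10.0% of the STK library and 10.1% of the DMSO library. Among them, Kupffer-like cells were 6.73% in the STK library (5.31 to 8.39) and 2.14% in the DMSO library (1.37 to 3.16), a ratio of 3.15 (1.96 to 5.22). Cells with Clec4f numbered 40 in the STK library and 9 in the DMSO library, a ratio of shares of kept cells of 4.57 (2.18 to 10.7). Cells with 3 to 5 markers numbered 40 and 11, a ratio of 3.74 (1.88 to 8.08), and 2-marker cells 33 and 13, a ratio of 2.61 (1.34 to 5.4).

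The neighbouring group went the other way. C1q macrophages with 1 marker were 24.7% of C1q macrophages in the STK library (22.2 to 27.4) and 34.8% in the DMSO library (32.0 to 37.7). With every cell thinned to 2000 UMIs before the rule was applied, 39 of 9196 STK cells and 14 of 9001 DMSO cells met it, a ratio of 2.73.

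Counts within each sex were small. Among female kept cells, 32 of 4613 in the STK library and 2 of 1025 in the DMSO library were Kupffer-like, a ratio of 3.56 (0.907 to 30.6). Among male kept cells they were 7 of 1621 in the STK library and 10 of 4439 in the DMSO library, a ratio of 1.92 (0.619 to 5.58). Of C1q macrophages, the ratio was 1.85 in female cells (0.472 to 15.9) and 2.01 in male cells (0.648 to 5.84). All 4 intervals include 1, so within a sex no difference was detectable at these counts.

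**Figure D2:**
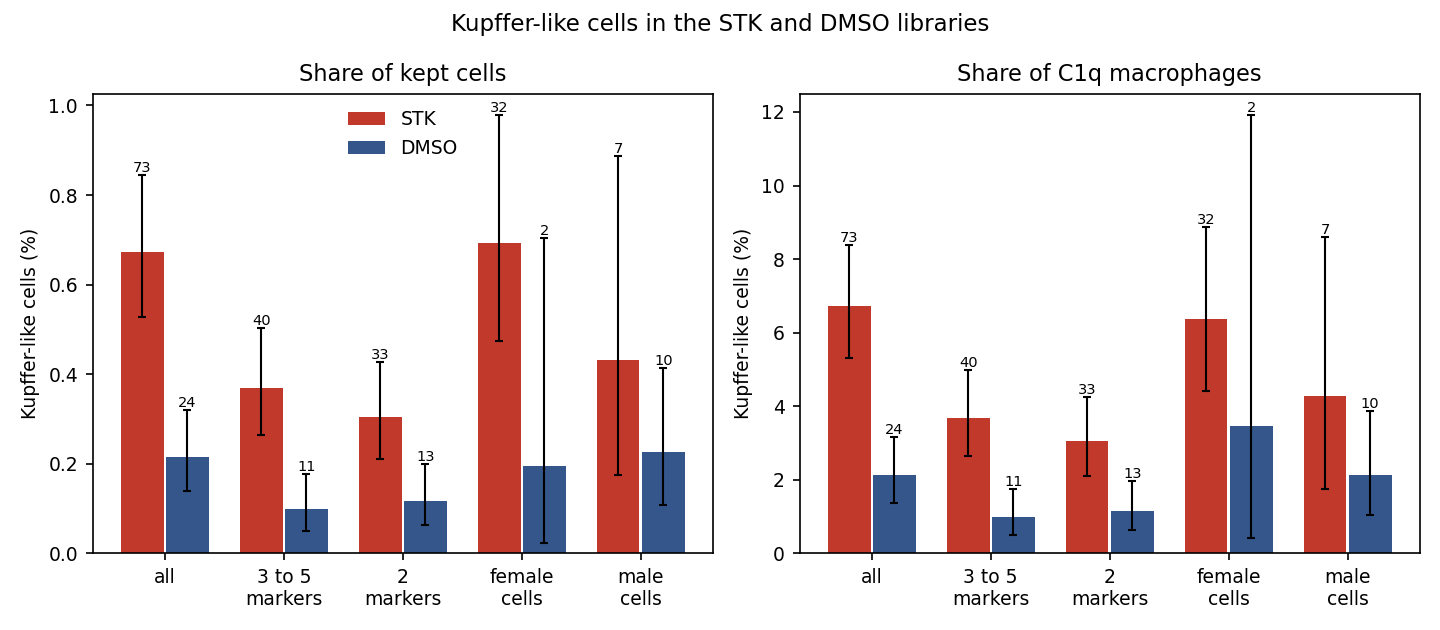
Bars give Kupffer-like cells as a percent of kept cells (left) and of C1q macrophages (right) in the STK and DMSO libraries, with exact 95% intervals and the number of cells above each bar. The STK bar is above the DMSO bar in every pair, and the intervals are apart for all cells, for cells with 3 to 5 markers and for those with 2, but overlap within each sex.

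Next, Kupffer-like cells were set against the other C1q macrophages of the same library, 1012 STK and 1099 DMSO cells with fewer than 2 of the 5 markers. UMIs were summed over cells and scaled to CPM. Of 8276 genes with at least 50 UMIs in each library, 119 (1.44%) were at least 2-fold higher in Kupffer-like cells in both libraries and 210 (2.54%) at least 2-fold lower. Of 20 Kupffer identity genes outside the gate, 13 were measured and 9 were higher in both, with median log2 ratios of 1.93 in the STK library and 1.97 in the DMSO library, where the medians of all genes were -0.01 and 0.07. The gate picked cells by other genes of the same programme, so these counts describe the class and are no independent evidence for it.

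Folr2 had the highest ratios by the naming rule, among genes outside the gate with at least 50 UMIs in each library. It had 317 CPM in Kupffer-like cells against 5.59 CPM in other C1q macrophages of the STK library, a ratio of 56.6 (40.9 to 79.8). In the DMSO library it had 246 against 1.93 CPM, a ratio of 127 (66.7 to 259). Apoc1, an apolipoprotein gene, had 1095 against 52.7 CPM in the STK library and 738 against 70.4 CPM in the DMSO library, ratios of 20.8 and 10.5. Both genes were high in the class in both libraries, and both were lower in its 2-marker cells, where Apoc1 had 403 CPM in STK and 220 CPM in DMSO cells.

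The genes named also included lectins and recognition proteins. Fcna, a ficolin that starts the lectin pathway of complement, had 726 against 94.4 CPM in the STK library (ratio 7.69) and 517 against 94.5 CPM in the DMSO library (5.47). Clec1b, a C-type lectin receptor, had ratios of 6.90 and 6.33. C6, a terminal complement component, had 85 UMIs in STK and 13 UMIs in DMSO Kupffer-like cells, against 2 UMIs and 0 UMIs in all other C1q macrophages. Cd163, the haptoglobin and haemoglobin receptor, had 84.0 CPM in STK Kupffer-like cells and 92.3 CPM in DMSO ones, against 0.238 and 1.78 CPM in other C1q macrophages. These receptors and complement genes were thus close to absent from the other C1q macrophages or several-fold lower there.

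Enzymes, transporters and a regulator were also among the highest. Hpgd, which inactivates prostaglandins, had ratios of 7.59 in the STK library and 6.0 in the DMSO library, and Ptgs1, cyclooxygenase 1, 6.70 and 12.8. Slc40a1, ferroportin, the cellular iron exporter, had 873 against 229 CPM in the STK library and 849 against 217 CPM in the DMSO library, ratios of 3.81 and 3.91. St3gal5, which makes the ganglioside GM3, had 8.78 and 6.42, and Cd36, a fatty acid and scavenger receptor, 3.58 and 5.25. Id3, the regulator that Kupffer cells need in the mouse, had 983 against 169 CPM in the STK library and 665 against 112 CPM in the DMSO library, ratios of 5.82 and 5.93. The chemokine genes Ccl24 (13.2 and 5.23) and Cxcl1 (3.70 and 5.22) and the genes Myo10, Lilra5 and Rhoc (3.96 to 6.33) completed the 15 highest by the naming rule. A single 2-marker STK cell held 127 of the 168 UMIs of Cxcl1, and without the richest Kupffer-like cell of each library its ratios were 0.960 and 2.31, so it was no longer higher in both. Rhoc was likewise at 1.02 in the DMSO library without its richest cell.

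Other known Kupffer genes differed little between the classes. Nr1h3, which encodes LXR alpha, had 324 against 254 CPM in the STK library and 326 against 288 CPM in the DMSO library, ratios of 1.27 (1.09 to 1.48) and 1.13 (0.845 to 1.49). Siglec1, a sialic acid receptor, had ratios of 1.17 (0.723 to 1.81) and 1.59 (0.718 to 3.07). Spic, the regulator of iron-recycling macrophages, had 1.24 and 1.56. Of 24 lineage transcription factors, 23 were measured and 2 were at least 2-fold higher in both libraries, Id3 and Id1, with 0 lower. Over all 8276 measured genes 1.44% were higher and 2.54% lower.

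Most monocyte genes and some antigen presentation genes were lower in Kupffer-like cells. Of 11 monocyte genes measured, 7 were at least 2-fold lower in both libraries and 0 higher, with median log2 ratios of -1.74 and -1.40. Over all 8276 measured genes 2.54% were lower and 1.44% higher, and the list counts here are read against these shares. Ly6c2 had 203 against 684 CPM in the STK library and 203 against 681 CPM in the DMSO library, ratios of 0.297 and 0.298. S100a6, a calcium-binding protein, had ratios of 0.283 and 0.143, and Chil3, a chitinase-like lectin, 0.284 and 0.129. Of 32 genes of the interferon-gamma and antigen presentation list, 7 were lower in both and 0 higher, with medians of -0.48 and -0.94. H2-Ab1 had ratios of 0.407 (0.387 to 0.427) and 0.354 (0.315 to 0.397) and H2-Eb1 0.339 and 0.306. The 10 lowest genes by the naming rule also held the chemokine receptors Ccr1 (0.208 and 0.112) and Ccr7 (5 and 0 UMIs), the lectins Mgl2 and Clec4e, the genes Gpr141 and Sirpb1c, and Nfkbie, an inhibitor of NF-kB. In the cells with 3 to 5 markers alone, Ccr1 had 0 UMIs in the DMSO library, too few to give it a direction there.

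**Figure D3:**
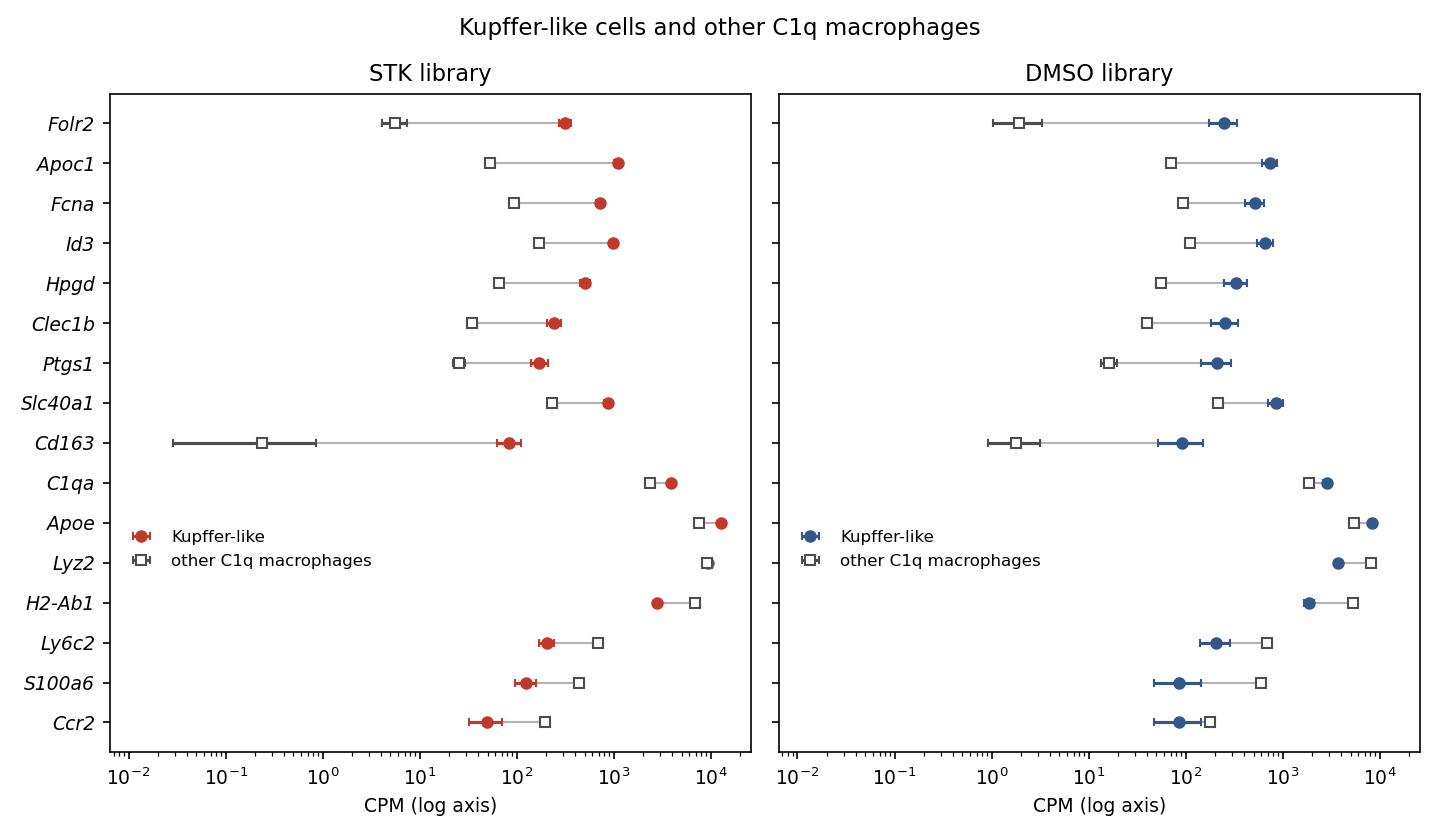
CPM of 16 genes in Kupffer-like cells (filled circles) and other C1q macrophages (open squares) of the STK library (left) and the DMSO library (right), on a log axis with exact 95% Poisson intervals. Folr2 and Cd163 lie furthest apart, Apoe and C1qa close together, and H2-Ab1, Ly6c2, S100a6 and Ccr2 lie below the other macrophages in both libraries. Lyz2 lies below them in the DMSO library only.

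STK and DMSO Kupffer-like cells were then compared with each other. Of 2199 genes that reached 50 UMIs in the libraries together, 297 (13.5%) were at least 1.5-fold higher in STK cells and 213 (9.69%) at least 1.5-fold lower, by the ratio of CPM. The interval of the ratio excluded 1 for 176 of the 297 and for 141 of the 213. A single cell held at least 30% of the UMIs in 56 of the 297 and in 68 of the 213. Without the cell richest in each gene, 279 and 136 were still called. Among cells with 3 to 5 markers, 896 genes were measured, with 130 (14.5%) higher and 95 (10.6%) lower. Of the 297, 93 were measured there and 55 called higher again, and of the 213, 46 were measured and 28 called lower again.

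The genes with the largest ratios mostly rested on 1 or a few cells. Saa3 had 385 UMIs in 4 STK cells against 1 UMI in the DMSO cells, and Fn1 196 UMIs in 6 STK cells against 2 UMIs. Without the 9 STK and 4 DMSO cells that carried other types' markers, Saa3 had 2 against 1 UMI and Fn1 3 against 1, while Arg1, Lcn2 and Lrg1 had 0 UMIs in both groups. Krt8 then had 7 UMIs in STK cells against 2 in DMSO cells, Serpinf2 4 against 1, and Igfbp1 and Apom 3 against 1 each. Arg1 (145 against 1 UMI), Krt8 (131 against 2), Lcn2 (165 against 0), Lrg1 (64 against 1), Serpinf2 (55 against 1), Igfbp1 (86 against 2), Apom (83 against 2) and C3 (146 against 4) each had 69.0% to 100% of their STK UMIs in 1 cell. In Chka (74 against 1 UMI), Thbs1 (102 against 2) and Gpnmb (194 against 5) 1 cell held 36.3% to 59.5%. Of the 15 highest genes, only Nlrp3 and Osm had less than 30% in 1 cell.

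So did several of the lowest. Igfbp7 had 0 UMIs in STK cells against 166 in 1 DMSO cell, and Sparc 1 against 99, all 99 in that cell. Fabp4, a lipid-binding protein, had a ratio of 0.241, but 95.9% of its DMSO UMIs lay in 1 cell, and without the richest cell of each library it was 1.56. Gzma, a granzyme of T and NK cells, had 43 UMIs in 1 STK cell against 79 in 2 DMSO cells. Without the cells that carried other types' markers, Igfbp7 and Gzma had 0 UMIs in both groups and Sparc 1 in STK cells against 0 in DMSO cells, and Fabp4 had a ratio of 5.09, Fkbp1a 1.49 and S100a10 1.15. Fkbp1a (ratio 0.372) and Mmp12 (0.447) were 1.36 and 1.27 without their richest cells, and S100a10 (0.294), Ifitm2 (0.497) and Ccl5 (0.397), a chemokine gene, had 40.3% to 62.3% of their DMSO UMIs in 1 cell. Genes spread over many cells were therefore also ranked, a choice made after the values had been seen. They had UMIs in at least 8 cells of the higher library and less than 30% of them in 1 cell. Genes higher in STK cells also needed 50 UMIs in the STK library, whereas lower genes needed 50 in the libraries together.

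**Figure D4:**
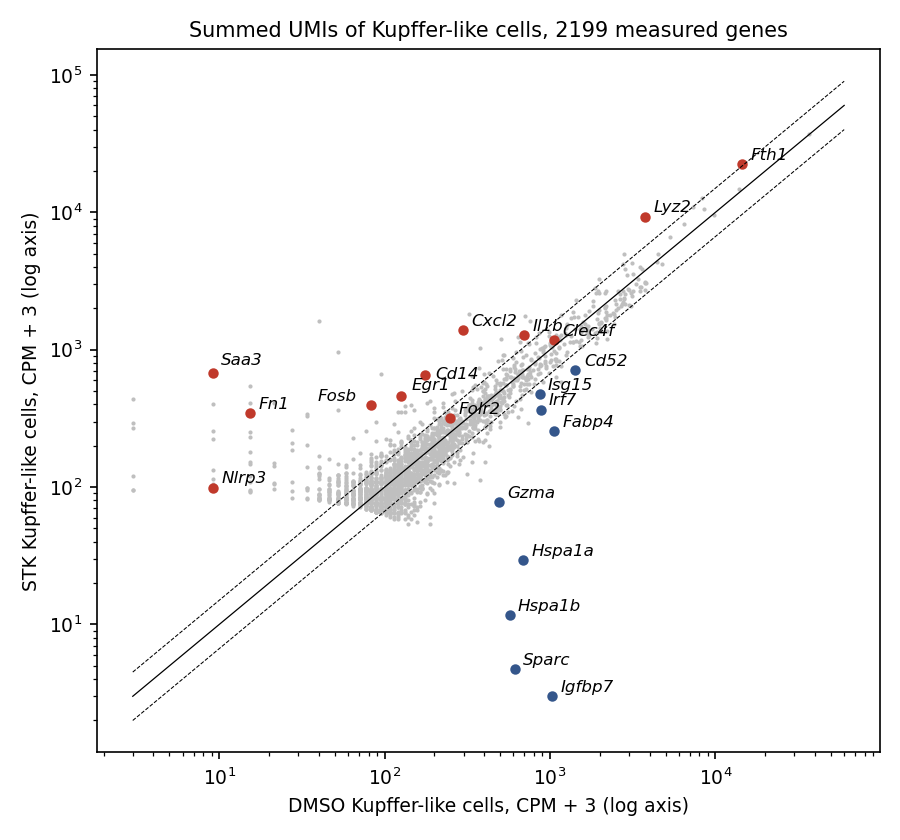
CPM of each measured gene in DMSO (horizontal) and STK (vertical) Kupffer-like cells, with 3 CPM added, on log axes. The solid line marks equality and the dashed lines 1.5-fold. Points named in red lie above equality and those in blue below. Saa3, Fn1, Igfbp7, Sparc and Gzma rest on at most 6 cells per library. Cxcl2, Cd14, Egr1, Fosb, Irf7, Cd52, Hspa1a and Hspa1b are spread over more cells in the library where they are higher.

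Several genes of inflammatory activation were higher in the STK cells, 7 of 16 measured on the list of inflammatory cytokines and NF-kB feedback and 10 of 15 chemokines. Over all measured genes 13.5% were higher. Cxcl2, a chemokine that draws neutrophils (chromosome 5 from 90903871 to 90905938, plus strand), had 792 UMIs in 41 of 73 STK cells against 48 UMIs in 7 of 24 DMSO cells. That is 1385 CPM against 295 CPM, a ratio of 4.69 (3.50 to 6.42). A single DMSO cell held 34 of the 48 UMIs, and without the richest cell of each library the ratio was 14.1. Among cells with 3 to 5 markers it had 464 UMIs in 24 of 40 STK cells against 7 UMIs in 4 of 11 DMSO cells, a ratio of 14.9 (7.16 to 37.2). These STK cells ran from 0 to 72 UMIs with a median of 2 and the DMSO cells from 0 to 3 with a median of 0. The groups overlapped at the low end, and every cell above 3 UMIs was an STK cell.

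Il1b, the inflammatory cytokine interleukin 1 beta (chromosome 2 from 129364570 to 129371139, minus strand), was named after its values had been seen. It had 732 UMIs in 52 STK cells against 113 UMIs in 8 DMSO cells, 1280 CPM against 695 CPM, a ratio of 1.84 (1.51 to 2.27). Of the 113 UMIs, 81 lay in 1 DMSO cell, and without the richest cells the ratio was 5.51 (3.87 to 8.13). Without the cells that carried other types' markers it was 1.49, just under the 1.5-fold call. Among cells with 3 to 5 markers it had 313 UMIs in 31 of 40 STK cells against 10 UMIs in 3 of 11 DMSO cells, a ratio of 7.02 (3.77 to 14.8). The share of cells with a UMI was 71.2% in STK cells and 33.3% in DMSO cells, and 54.1% (40.8 to 66.9) and 28.6% (11.3 to 52.2) after thinning. In T cells, which should make little of it, the share was 12.9% in the STK library and 8.26% in the DMSO library, and 10.4% and 6.44% after thinning. After thinning, Cxcl2 was found in 32 of 61 STK and 4 of 21 DMSO Kupffer-like cells, and in 5.33% and 2.07% of T cells.

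Cd14, the lipopolysaccharide co-receptor, had 375 UMIs in 47 STK cells against 28 UMIs in 6 DMSO cells, a ratio of 3.81 (2.59 to 5.81), and 8.97 (3.44 to 33.3) among cells with 3 to 5 markers. Nlrp3, the sensor of the inflammasome that matures interleukin 1 beta, had 55 UMIs in 30 STK cells against 1 UMI in 1 DMSO cell, a ratio of 15.6 (2.69 to 629). Osm, the cytokine oncostatin M, had 58 UMIs in 13 STK cells against 1 UMI, and Ccl2, a monocyte chemokine, 58 UMIs in 23 cells against 3 UMIs in 2. Zc3h12a, a ribonuclease that degrades cytokine transcripts, had 59 UMIs in 29 STK cells against 3 UMIs in 2 DMSO cells. Pde4b, a phosphodiesterase induced in activated macrophages, had 95 UMIs in 36 STK cells against 6 UMIs in 4 DMSO cells. Each was found in at most 6 of 24 DMSO cells and in 13 or more of 73 STK cells. As shares of these unequal groups the 2 bounds do not separate them. Among STK cells with 3 to 5 markers Osm was in 1 cell.

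Immediate early genes were part of the same ranking. Egr1 had 262 UMIs in 42 STK cells against 20 UMIs in 4 DMSO cells, a ratio of 3.72 (2.36 to 6.20). Fosb had 224 UMIs in 48 STK cells against 13 UMIs in 6 DMSO cells, a ratio of 4.90 (2.81 to 9.34). Both encode transcription factors switched on within minutes of a stimulus. The remaining spread genes were Ddx3x, an X-linked RNA helicase gene (7.39), Dctpp1 (3.70) and Tgif1 (3.70).

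**Figure D5:**
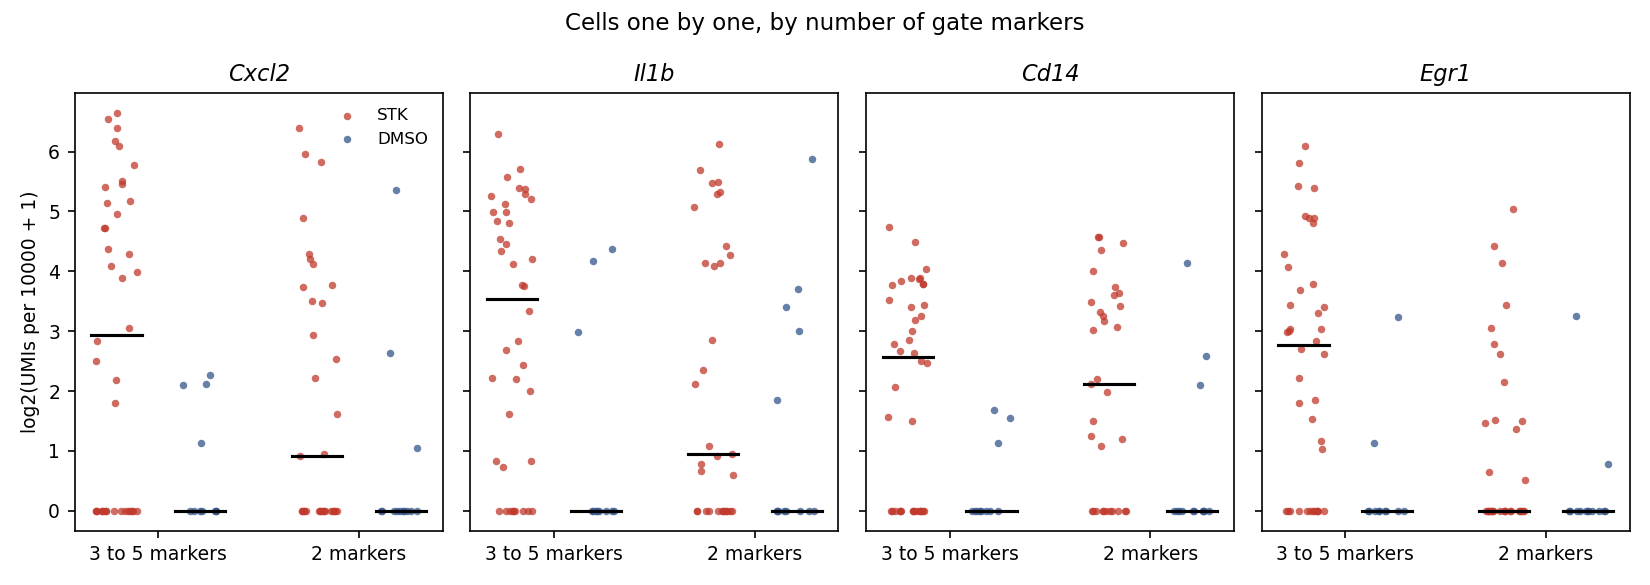
Each point is 1 cell, STK left of DMSO, among cells with 3 to 5 gate markers and with 2, on a log2(UMIs per 10000 + 1) scale, and bars are medians. For Cxcl2, Il1b, Cd14 and Egr1 the DMSO medians are at 0 in both strata and the highest values in cells with 3 to 5 markers are in STK cells.

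By list, 7 of 16 measured inflammatory cytokine and NF-kB feedback genes were higher and 1 lower in STK cells, with a median log2 ratio of 0.47, against 13.5% higher, 9.69% lower and a median of -0.01 over all measured genes. Among cells with 3 to 5 markers, 6 of 9 were higher and 1 lower, with a median of 1.06. Of 15 measured chemokine genes 10 were higher and 2 lower, with a median of 0.81, though among cells with 3 to 5 markers only 3 of 9 were higher and 1 lower (0.28). Cxcl9, an interferon-gamma-induced chemokine, had 114 UMIs in 13 STK cells against 5 UMIs in 2 DMSO cells. A pair of STK cells held 68 of the 114 UMIs. Among cells with 3 to 5 markers 2 STK cells held 22 UMIs of Cxcl9 and the rest 1, against 0 in DMSO cells. Ccl4, a chemokine for T and NK cells and named after its values had been seen, went the other way, with 685 UMIs in 45 STK cells against 358 UMIs in 18 DMSO cells, a ratio of 0.544 (0.478 to 0.620), and 0.383 (0.317 to 0.464) among cells with 3 to 5 markers. There 2 of the 11 DMSO cells held 114 of 178 UMIs, and without the 2 richest cells of each library the ratio was 0.519 (0.389 to 0.701). Lyz2, lysozyme, also named after its values had been seen, had 9303 CPM in STK cells against 3748 CPM in DMSO cells, a ratio of 2.48 (2.28 to 2.70).

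The other C1q macrophages moved in the same direction for several of these genes. Their ratio of STK over DMSO was 1.93 for Cxcl2, 1.46 for Il1b, 2.38 for Cd14, 3.26 for Egr1, 1.96 for Fosb and 3.48 for Nlrp3. It was 0.912 for Osm, 0.964 for Ccl2 and 1.14 for Lyz2. Whether the Kupffer-like ratios differ from these was not tested. Within male cells, 7 STK and 10 DMSO, the ratio was 2.34 for Cxcl2, 1.42 for Il1b, 2.68 for Cd14 and 1.06 for Egr1. Sex and treatment cannot be told apart in the pooled ratios.

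Of the heat shock genes, Hspa1a and Hspa1b were far lower in the STK cells. Hspa1a had 15 UMIs in 11 STK cells against 111 UMIs in 12 DMSO cells, a ratio of 0.0384 (0.0208 to 0.0661). Hspa1b, its neighbour of nearly the same sequence, had 5 UMIs in 3 STK cells against 92 UMIs in 12 DMSO cells, a ratio of 0.0154 (0.00490 to 0.0374), and how reads were split between the pair is uncertain. Other C1q macrophages had ratios of 0.0731 and 0.0476, so the gap was present in these cells too. Of 23 measured stress and heat shock genes 4 were higher and 4 lower in STK Kupffer-like cells, with a median log2 ratio of -0.14. The shares of all measured genes were 13.5% higher and 9.69% lower. In cells with 3 to 5 markers the counts of the stress list went the other way, with 7 of 19 higher, 2 lower and a median of 0.26. There 14.5% of all measured genes were higher and 10.6% lower. Over all cells of the class, Fosb, Egr1, Junb (1.55) and Btg2 (1.60) were higher, and Hspa1a, Hspa1b, Zfp36 (0.628) and Dnajb1 (0.604) were lower.

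Part of the type I interferon genes were lower in STK cells. Of 16 measured, 0 were higher and 5 lower, with a median log2 ratio of -0.28, where 13.5% of all measured genes were higher and 9.69% lower. Of 8 measured among cells with 3 to 5 markers 0 were higher and 5 lower, with a median of -0.61. There the shares of all measured genes were 14.5% and 10.6%. Irf7, the master regulator of the response, had 208 UMIs in 51 STK cells against 142 UMIs in 21 DMSO cells, 364 CPM against 874 CPM, a ratio of 0.416 (0.335 to 0.519), and 0.296 (0.196 to 0.448) among cells with 3 to 5 markers. Isg15, a ubiquitin-like protein of the response, had 471 CPM in STK cells against 862 CPM in DMSO cells, a ratio of 0.546 (0.444 to 0.675). Among the cells with Clec4f, Isg15 went the other way, with a ratio of 1.24. Ifi27l2a, an interferon-induced gene, had a ratio of 0.768 (0.661 to 0.894). In other C1q macrophages these ratios were 0.809, 0.879 and 0.760, and within male Kupffer-like cells 0.698, 0.952 and 1.24.

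Cd52, a small surface glycoprotein of leukocytes and 1 of the 15 lowest genes, had 404 UMIs in 58 STK cells against 231 UMIs in 21 DMSO cells, a ratio of 0.497 (0.422 to 0.587). Ddit4, a stress-induced inhibitor of mTORC1, had 29 UMIs in 10 STK cells against 30 UMIs in 8 DMSO cells, a ratio of 0.275 (0.159 to 0.474). Zfp36l2, which promotes decay of transcripts with AU-rich elements, had a ratio of 0.466 (0.342 to 0.637). Rsrp1 (0.390), Fgfr1op2 (0.373), Ubald2 (0.399), Rnf114 (0.426), Mat2a (0.433), Cnn2 (0.444) and Phf11b (0.447) completed the 12 lowest spread genes. Ubald2 was higher in male STK cells (2.08).

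The identity genes outside the gate mostly lay within 1.5-fold. Levels of gate genes describe the class only. Among cells with 3 to 5 markers the gate gene Clec4f had 2693 CPM in STK cells against 3173 CPM in DMSO cells, a ratio of 0.849 (0.716 to 1.01). Marco, also of the gate, lay further apart there. It had 137 of 238797 UMIs in STK cells, 57 of them in 1 cell, against 13 of 53578 in DMSO cells. Folr2, which the rule did not use, had 678 CPM in STK cells with 3 to 5 markers against 691 CPM in such DMSO cells, a ratio of 0.982 (0.684 to 1.45). Over all measured genes 13.5% were higher and 9.69% lower. Of 14 measured identity genes outside the gate 2 were higher and 1 lower, with a median log2 ratio of 0.08. The pair that were higher were C6, with 85 UMIs in 31 STK cells against 13 UMIs in 9 DMSO cells (ratio 1.86, 1.03 to 3.63), and Hpgd, with 504 against 332 CPM (1.52, 1.13 to 2.07). Spic had 210 CPM in STK cells against 314 CPM in DMSO cells (0.669, 0.478 to 0.947), but 0.999 among cells with 3 to 5 markers. The 1 gene that was lower, named after its values had been seen, was Cdh5, a cadherin of Kupffer cells and endothelium, with a ratio of 0.470. The cell of 28111 UMIs with genes of sinusoidal endothelium held 57.7% of its DMSO UMIs. Among cells with 4 or 5 markers Cdh5 had 248 CPM in STK cells and 259 CPM in DMSO cells. An interval that includes 1 does not show that levels are the same.

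Against 13.5% higher and 9.69% lower of all measured genes, 1 of 17 measured lineage transcription factors was higher and 3 lower, with a median of -0.01. Maf, named after its values had been seen, had 163 CPM in STK cells against 295 CPM in DMSO cells, a ratio of 0.551 (0.385 to 0.797). Klf4, a monocyte and macrophage factor, had 51 UMIs in 27 STK cells against 7 UMIs in 1 DMSO cell. In other C1q macrophages Maf had a ratio of 0.603.

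Genes of iron, lipid and lysosomal handling mostly lay within 1.5-fold. Fth1, the ferritin heavy chain that stores iron, had 22472 CPM in STK cells against 14418 CPM in DMSO cells, a ratio of 1.56 (1.49 to 1.63), and 1.89 (1.73 to 2.08) among cells with 3 to 5 markers. Hmox1, which breaks down haem, had 1744 against 702 CPM, a ratio of 2.49 (2.05 to 3.04), with 32.7% of its STK UMIs in 1 cell, and 0.610 within male cells. For Hmox1, 2 STK cells held 597 of 997 UMIs, and without the 2 richest cells of each library the ratio was 1.28 (1.02 to 1.64), below the 1.5-fold call. Together they were the 2 of 15 measured iron and haem genes that were higher, with 0 lower, a share close to the 13.5% of all measured genes. The lysosomal and efferocytosis counts that follow are read against the same 13.5% higher and 9.69% lower. Of 27 measured lysosomal genes 5 were higher and 0 lower, with a median of 0.22, among them Ctsd, cathepsin D (1.77, 1.60 to 1.95), and Atp6v0d2, a proton pump subunit (2.64), which was 0.577 in male cells. Of 18 measured efferocytosis and scavenger genes 3 were higher and 0 lower, with a median log2 ratio of 0.26: Trem2, a lipid receptor (2.58, 1.38 to 5.34), Itgb5, an integrin of apoptotic cell uptake (2.50), and Mrc1, the mannose receptor (1.52). Trem2 was 1.12 among cells with 3 to 5 markers.

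The LXR counts are likewise read against 13.5% higher and 9.69% lower of all measured genes. Of 11 measured LXR target and sterol efflux genes 3 were higher and 0 lower, with a median of 0.52, namely Apoe (1.53, 1.44 to 1.62), Abcg1 (1.80) and Apoc2 (7.18). Apoc2, whose product activates lipoprotein lipase, had 79.7% of its STK UMIs in 1 cell and a ratio of 0.702 without the cells that carried other types' markers. Of cells with 3 to 5 markers, 0 of 7 genes of this list were higher or lower, and Abcg1, a cholesterol exporter, was 0.897. The series title names SOAT1, which esterifies cholesterol, and the receptor GPR132. Soat1 (chromosome 1 from 156424525 to 156474331, minus strand) had 75 UMIs in 37 STK cells against 26 UMIs in 15 DMSO cells, 131 against 160 CPM, a ratio of 0.820 (0.519 to 1.34). Gpr132 (chromosome 12 from 112850873 to 112868228, minus strand) had 27 UMIs in 10 STK cells against 2 UMIs in 2 DMSO cells, a ratio of 3.84 (0.964 to 33.3), and 26 of the 27 UMIs lay in 2-marker cells. After thinning it had a UMI in 6.56% of STK and 0% of DMSO Kupffer-like cells (up to 16.1), against 35.2% and 15.8% of T cells. Soat2, whose product also esterifies cholesterol, had 2 UMIs in STK cells against 0 in DMSO cells. Of 26 cholesterol synthesis genes 2 were measured and 1, Fdps, was higher (2.19, 0.995 to 5.71).

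For the remaining lists the median log2 ratio stands in parentheses after the counts. The counts are read against 13.5% higher and 9.69% lower of all measured genes, or 14.5% and 10.6% among cells with 3 to 5 markers. With at most 20 measured genes in a list, they are descriptions only. Of 18 measured complement genes 4 were higher and 2 lower (0.42), and of 13 glycolysis genes 3 were higher and 1 lower (0.30). Of 7 genes of the niche signal list 2 were higher and 0 lower (0.41), Skil (3.03), which does not encode a receptor, and the receptor gene Csf2rb (2.24). Csf1r, the receptor for the growth factor that maintains macrophages, had a ratio of 1.42 (1.10 to 1.85). Of 20 tumour and lipid-associated macrophage genes 6 were higher and 4 lower (0.30), and of 20 interferon-gamma and antigen presentation genes 6 were higher and 0 lower (0.19), but 0 higher and 2 lower of 12 among cells with 3 to 5 markers. H2-Ab1, named after its values had been seen, had a ratio of 1.51 (1.34 to 1.71), and 1.29 (0.972 to 1.73) among cells with 3 to 5 markers. Of 9 checkpoint and costimulatory genes 1 was higher and 1 lower (-0.30), of 10 glucocorticoid response genes 2 were higher and 4 lower (-0.38), and of 5 sterol handling genes 0 were either. Only 3 of 25 proliferation genes were measured, with 0 higher and 1 lower.

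RNA of other cell types was uneven between the groups. All 22 measured hepatocyte genes were higher in STK cells. The 8 hepatocyte markers, here with Trf, summed to 4732 CPM in STK cells, against 474 CPM in DMSO cells. Of the STK sum 82.0% lay in 1 cell. The 8 markers of sinusoidal endothelium summed to 68.2 CPM in STK cells, with Ptprb, Oit3 and Gpr182 at 0, against 978 CPM in DMSO cells, 97.5% of it in 1 cell. The 5 NK markers summed to 99.7 CPM in STK cells and 609 CPM in DMSO cells, and the 5 serosal macrophage markers to 114 CPM in STK cells and 0 in DMSO cells. Of the 7 T cell markers 2 were detected in STK cells and 4 in DMSO cells, with 3 and 12 UMIs. Neutrophil markers had 27 and 2 UMIs, with S100a9 and Retnlg at 0 in both groups, and erythroid markers 0 and 1 UMI. Plasmacytoid dendritic cell markers, here with the broadly expressed Bst2, summed to 1151 CPM in both groups. A single cell held 24.5% of it in STK and 34.2% in DMSO cells. Other C1q macrophages had 964 CPM of the same markers in the STK library and 778 CPM in the DMSO library. Of the 658 STK and 187 DMSO UMIs, Siglech had 60 and 14 and Klk1 127 and 16. Conventional dendritic cell markers summed to 150 CPM in STK cells and 43.1 CPM in DMSO cells. B and plasma cell markers had 11 and 7 UMIs, with Cd79a, Ms4a1 and Jchain at 0 in both. The part of this RNA in the differences above was measured only by leaving out the 9 STK and 4 DMSO cells. Then Fth1 (1.30), Ctsd (1.47), Apoe (1.42), H2-Ab1 (1.35), Zfp36l2 (0.908), Ubald2 (0.893) and Ifitm2 (0.700) were no longer past 1.5-fold. The 8 monocyte markers summed to 766 CPM in STK cells and 849 CPM in DMSO cells, with Vcan at 0 in both.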

How the data were processed

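The deposited files hold counts, whole numbers of UMIs per gene and barcode, from 10x 5′ libraries. Cell Ranger 6.0.2 made the counts, per the file headers. The build was GRCm38 (mm10), per the submitters' processing notes. Depth was unequal between cells, so shares of cells with a UMI were also computed with cells thinned to 2000 UMIs. From these counts, UMIs were summed over the cells of a class in each library and scaled to CPM. Genes that reached 50 UMIs in the libraries together were compared by the ratio of CPM, called at 1.5-fold, with exact conditional binomial intervals. A group at 0 UMIs was set to a floor of 3 UMIs over the group. Shares have Clopper-Pearson intervals and CPM Poisson intervals. Between classes, calls needed 2-fold in both libraries and at least 50 UMIs in each.

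There was 1 library per group, so no test was run and intervals cover counting error only. The members and the 30 gene lists were chosen with earlier results of these data known. Named genes were the 15 highest and 15 lowest by ratio among genes that reached 50 CPM and 50 UMIs in the higher library, leaving out receptor segments, mitochondrial, ribosomal, sex-linked, haemoglobin and listed hepatocyte genes and gene models. The 15 highest and 10 lowest of the class comparison and up to 3 genes per list, of the 6 that the rule allowed, were added, as were the study's own genes. Nr1h3, Siglec1, Id1, H2-Eb1, Junb, Btg2, Zfp36 and Dnajb1 were named after their values had been seen. The ranking of spread genes (12 each way), the removal of cells with other types' markers and of each gene's richest cell or 2 richest cells were chosen after seeing the data. Scrublet's automatic threshold (scanpy 1.11.5) marked 0 STK and 187 DMSO cells, so the highest 8% of scores were marked instead (901 STK, 907 DMSO cells, ties included), and these were removed as an alternative. Python 3.11.15, numpy 2.4.6, scipy 1.17.1, pandas 2.3.3 and matplotlib 3.10.9 were used. The summing and calling steps were tested on simulated data. There all cells of a library shared 1 profile, so UMIs concentrated in single cells were not covered. A few single-gene results are not reported here.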

Additional observations from a re-analysis of the deposited data

How the results depend on the processing

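No paired analysis was possible because each group is 1 library and no result comes from a test. The ratio of STK over DMSO shares lay between 2.73 and 4.57 of kept cells and between 2.64 and 4.60 of C1q macrophages, except with exactly 2 markers (2.61 and 2.63), in male cells (1.92 and 2.01) and, of C1q macrophages, in female cells (1.85). Of male kept cells it was 1.37 with 3 to 5 markers and 2.28 with 2. Higher and lower genes numbered 824 and 748 at 20 UMIs, 65 and 28 at 200 UMIs, 130 and 95 with 3 of 5 markers, 149 and 83 with Clec4f and 1 other marker, and 53 and 54 in male cells. In female cells, with 2 in the DMSO library, they numbered 435 and 304 of 1247 genes. With the mean over cells 355 were higher and 324 lower. Of the class comparison, 30 genes were higher at 200 UMIs and 248 with 3 of 5 markers. Ratios of single genes and lists are not given for female cells, since the DMSO library had 2.

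Of 1090 ratios of named genes recomputed, 787 moved by less than their counting interval, 253 moved further and 50 changed direction, in 26 of 105 genes, and 0 of 193 list medians did. With the mean over cells Klk1 was 0.953. Without doublets marked by Scrublet Fabp4 was 5.14, Fkbp1a 1.30, Tubb5 1.23 and Klk1 0.268. With 3 of 5 markers Fkbp1a was 1.85, Mmp12 1.05, Ifitm2 1.06, Cfb and Abcg1 0.897, H2-DMa 0.832, Fcgr2b 3.37 and Klk1 0.224, and in the class comparison the floor put Ccr1 at 1.02, which gives no direction. With Clec4f and 1 other marker Thbs1 and Cfb were 0.981, Fkbp1a 2.03, Mmp12 1.12, Trem2 0.916, Isg15 1.24, H2-DMa 0.883, Fcgr2b 3.14 and Klk1 0.405. In male cells Fkbp1a was 1.15, Ccl5 1.90, Ifitm2 1.05, Ubald2 2.08, Hmox1 0.610, Atp6v0d2 0.577, Apoc2 0.692, Aldoa 0.853, Tubb5 1.09 and Klk1, at the floor, 0.216. Without cells with other types' markers Saa3 was 0.553, Fn1, Igfbp1 and Apom 0.829, Krt8 0.967, Fabp4 5.09, S100a10 1.15, Fkbp1a 1.49, Apoc2 0.702, Tubb5 1.06 and Mt1 0.947. Without each gene's richest cell Fabp4 was 1.56, Fkbp1a 1.36 and Mmp12 1.27, and Cxcl1 of the class comparison was 0.960. Without its 2 richest cells Fabp4 was 2.10, Fkbp1a 1.38, Mmp12 3.29 and Tubb5 1.02. The cause was not tested. With 24 DMSO cells and 162508 UMIs, genes under 50 UMIs were not compared.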
